A study of Mus musculus with 12 samples.

Results

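The genes described here are the 50 genes of the DNA replication machinery, chosen as a named list of proteins that assemble, start, run and protect the replication fork. All 50 were among the 21671 genes of the expression table, and all 50 were among the 9745 genes tested. The rule that names them uses no measured value, but the list was chosen with earlier results of these data known. The cells were FL MycER cells: FL5.12, an interleukin-3-dependent mouse cell line of BALB/c origin that the labels call prolymphocytic, carrying a retroviral vector that constitutively expresses MycER. MycER is a fusion of MYC with a modified hormone-binding domain of the estrogen receptor, and 4-hydroxytamoxifen (OHT) switches it on. All 4 groups carried MycER, so the untreated cells are cells with the fusion but no OHT and not parental cells, and per the study's methods they were a drug-selected pool and not 1 clone. Cells were left untreated, kept in 100 nM OHT for 72 h, exposed to 135 nM IACS-010759 (IACS), an inhibitor of respiratory complex I, for 24 h without OHT, or kept in OHT for 72 h with IACS present during the last 24 h (OHT_IACS), which leaves 48 h of priming with OHT alone. Each group had 3 RNA-seq libraries, described by the study as biological replicates.

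Before a cell divides it must copy its genome once. The origin recognition complex with Cdc6 and Cdt1 loads the ring-shaped MCM helicase onto DNA, and Mcm10, Cdc45 and the GINS complex turn this ring into the active helicase. DNA polymerase alpha with primase starts each strand, polymerases delta and epsilon extend it, PCNA and its loader RFC hold the polymerases in place, and RPA covers single-stranded DNA. Fen1, Lig1, Dna2 and RNase H2 finish the lagging strand, the Chaf1a-Chaf1b pair deposits histones behind the fork, and Timeless, Tipin, Claspin (Clspn) and Wdhd1 stabilize the fork. Many of these genes are textbook targets of E2F transcription factors, which drive entry into S phase, and MYC is known as a further activator of that transition.

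Because E2F control is the best known regulation shared by these genes, their promoters were searched for the E2F letters TTTCCCGC and TTTGGCGC on both strands. RefSeq promoter sequences (GRCm38.p6, 250 bases before to 50 after the gene start) were present for 41 of the 50 genes, the others being Gins1, Gins2, Gins4, Mcm4, Pole, Prim2, Rfc2, Rnaseh2b and Tipin. A match was found for 13 of the 41 genes (31.7%), against 1.8% of all 27025 genes with a promoter of this length. Those genes were counted whether or not they were expressed here. The shares of this search were not matched for expression or base composition, so the part of these in the difference was not tested. The windows below show 5 genes that were lower after IACS in OHT-primed cells and 4 MCM subunits that were not called there, so that the letters can be read beside the values given later. The letters in capitals are the match, each sequence runs 5′ to 3′ along the gene, and positions are counted from 0 at the gene start.
Cdc6 (chr11:98908002-98908031, plus strand, capitals from -138): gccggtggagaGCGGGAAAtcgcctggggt
Gins3 (chr8:95633507-95633536, plus strand, capitals from -41): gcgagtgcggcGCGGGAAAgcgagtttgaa
Pold3 (chr7:100121467-100121496, minus strand, capitals from 17): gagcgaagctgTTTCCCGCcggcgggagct
Pole2 (chr12:69228162-69228191, minus strand, capitals from 10): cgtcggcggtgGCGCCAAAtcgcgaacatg
Rfc3 (chr5:151651190-151651219, minus strand, capitals from 0): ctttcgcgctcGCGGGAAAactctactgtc
Mcm3 (chr1:20820275-20820304, minus strand, capitals from 19): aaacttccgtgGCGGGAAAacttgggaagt
Mcm5 (chr8:75109349-75109378, plus strand, capitals from -149): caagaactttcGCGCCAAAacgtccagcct
Mcm6 (chr1:128359734-128359763, minus strand, capitals from -47): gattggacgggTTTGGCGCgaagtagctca
Mcm7 (chr5:138172030-138172059, minus strand, capitals from -165): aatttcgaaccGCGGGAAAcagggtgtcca

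The letters GCGGGAAA and GCGCCAAA in these lines are the 2 motifs read from the opposite strand. Mcm3 and Mcm6 each held a further match, and others lay in the promoters of Cdt1, Orc3, Pola1 and Pold1, and the matches did not overlap one another. Of the 18 genes with a promoter sequence that were lower after IACS in OHT-primed cells 5 held it, and of the 23 others 8 did. The E-box CACGTG, a sequence bound by MYC, was found for 7 of the 41 genes (17.1%), Chaf1a, Fen1, Lig1, Orc4, Pola2, Rfc1 and Rpa1, against 8.09% of all genes with a promoter. The CCAAT box was found for 24 of the 41 genes (58.5%), against 41.1% of all genes with a promoter, and its letters share CCAA with GCGCCAAA without the matches being the same.

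Library totals, worked out from the steps between the deposited values, ran from 10376530 to 14550158, with 161 to 2350 reads per replication gene and library. Of the markers of other states, Pax5, Il7r, Rag1 and Dntt, defining genes of early B cells, were at 0 in every library although the label is lymphoid, and 4 of 14 pro-B markers (Cd79a, Cd79b, Il3ra and Csf2rb) passed the filter. The pro-B markers summed to 52.6 to 55.4 RPKM in untreated, 53.3 to 55.2 in OHT, 51.2 to 55.2 in IACS and 59.1 to 60.4 in OHT_IACS libraries. Most of this sum was the interleukin-3 receptor chain genes Csf2rb (untreated mean 41.85) and Il3ra (7.71), beside Cd79b (2.99) and Cd79a (1.01). With OHT, 2 of the 4 tested were called lower and 0 higher, and Cd79b was 1 of those lower (log2 fold change -1.10 ± 0.17 SE, adjusted p = 2.6e-04). Myeloid markers were measured in all groups at a summed 70.9 to 71.5 RPKM in untreated, 45.6 to 50.4 in OHT, 61.2 to 72.4 in IACS and 43.0 to 46.8 in OHT_IACS libraries. Without priming, IACS raised Ctsg (log2 fold change 0.56 ± 0.13 SE, adjusted p = 0.0096) and lowered Prtn3 (log2 fold change -0.36 ± 0.09 SE, adjusted p = 0.018). Erythroid markers, with Gata1 and Klf1 the best measured, summed to 41.6 to 42.1, 41.9 to 44.0, 34.6 to 38.8 and 35.9 to 37.3 RPKM in the same order. Within that list Klf1 fell with IACS without priming (log2 fold change -0.95 ± 0.06 SE, adjusted p = 2.2e-07) and after it (log2 fold change -0.89 ± 0.06 SE, adjusted p = 4.7e-07) and with OHT (log2 fold change -0.50 ± 0.06 SE, adjusted p = 2.6e-05). Gata1 rose with OHT (log2 fold change 0.23 ± 0.05 SE, adjusted p = 0.0039) and was called in neither IACS response, and Hbb-b1, uncertain because of its near-identical copies, rose with IACS without priming (log2 fold change 0.67 ± 0.18 SE, adjusted p = 0.021) and with OHT (log2 fold change 0.68 ± 0.18 SE, adjusted p = 0.0088). Mast and basophil markers, nearly all Cpa3, summed to 4.89 to 5.41, 4.54 to 5.84, 8.20 to 8.86 and 11.8 to 15.2 RPKM, and T cell markers to 2.16 to 2.60, 1.21 to 1.44, 2.43 to 2.52 and 1.84 to 1.97 RPKM, with Cd3g lower with OHT (log2 fold change -0.88 ± 0.15 SE, adjusted p = 6.1e-04). The part of these markers in the results was not tested. Among the check genes, Myc fell with OHT (log2 fold change -0.81 ± 0.05 SE, adjusted p = 1.7e-07) and Ncl, a MYC target of the nucleolus, rose (log2 fold change 0.31 ± 0.05 SE, adjusted p = 5.9e-04). Of the 5 check genes for OHT, 2 were called higher, 1 lower and 2 neither. Cad was among those not called (log2 fold change 0.14 ± 0.10 SE, adjusted p = 0.3). Trib3, a gene of the stress response, rose with IACS without priming (log2 fold change 1.96 ± 0.10 SE, adjusted p = 7.8e-08) and after priming (log2 fold change 1.54 ± 0.10 SE, adjusted p = 5.7e-07). Whether reads of the MycER vector were counted towards Myc was not tested.

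Replication genes were well expressed. Their mean level over the 12 libraries ran from 6.14 RPKM for Orc1 to 86.9 for Pcna with a median of 21.7, and 46 of 50 lay above 9.09, the median of all genes tested. RPKM is the reads on a gene per length and per library total, and all values below were further scaled between libraries by their median ratio. The 6 MCM subunits ranged from 33.9 to 65.2 RPKM, the origin recognition and licensing genes from 6.14 to 28.1, and the Cdc45, Mcm10 and GINS genes from 10.3 to 24.8. For abundant genes the reads grew more slowly than the library total. The slope of log2 reads on log2 total was 0.735 (median) for the 6 genes with 0.5 to 1 reads per base (Mcm2, Mcm3, Mcm5, Mcm7, Pold2 and Fen1) and 0.261 for Pcna, against 1.175 for the 24 genes with 0.1 to 0.3. Differences of the most abundant genes therefore cannot be ranked against those of scarcer ones.

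**Figure D1:**
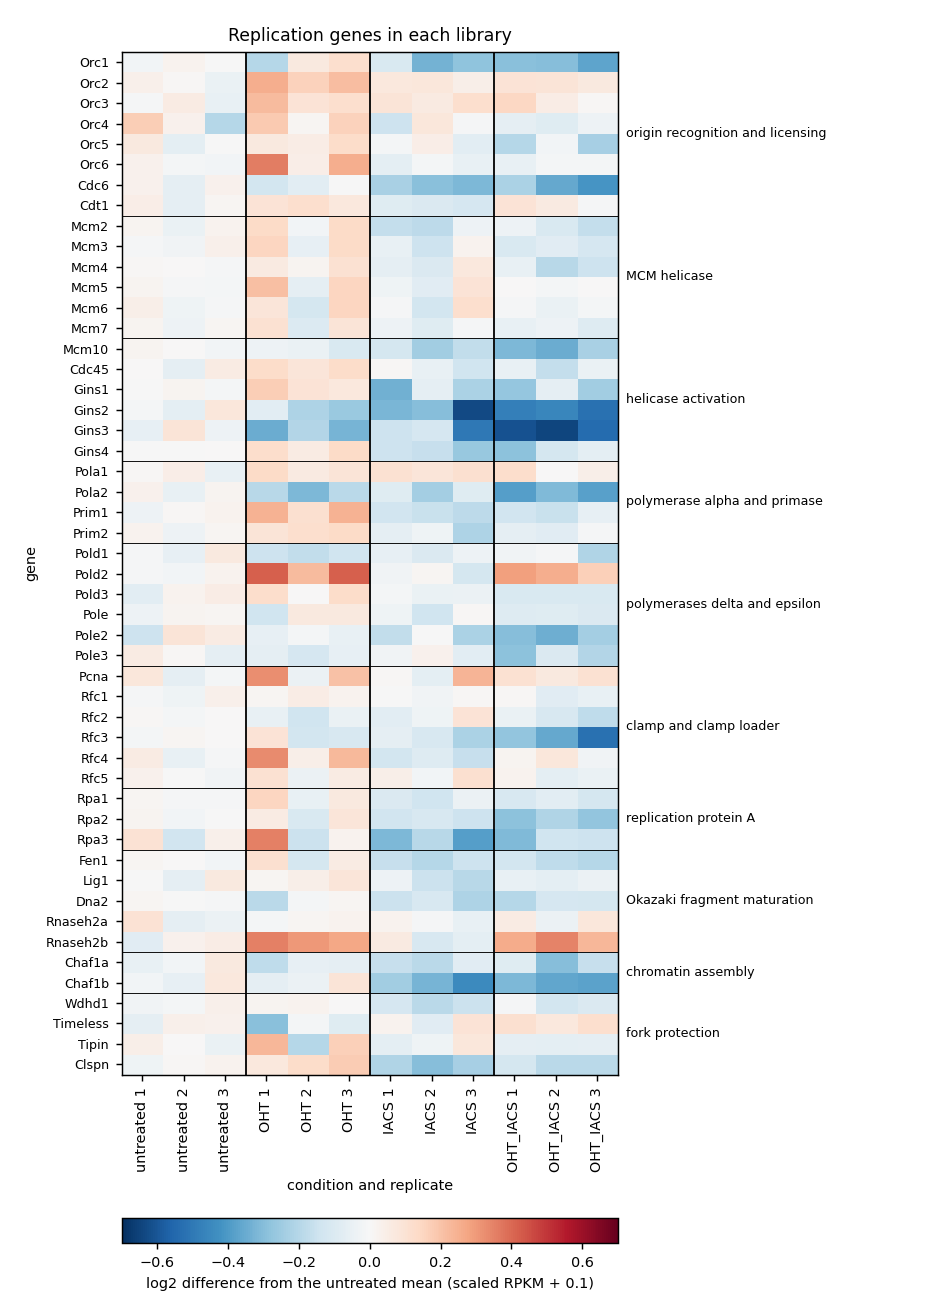
Each row is 1 of the 50 replication genes, grouped by role, and each column 1 of the 12 libraries; color is the log2 difference of RPKM (plus 0.1) from the mean of the 3 untreated libraries. The IACS and OHT_IACS columns are mostly blue (36 to 43 of 50 genes below 0), OHT replicates 1 and 3 are mostly red, and OHT replicate 2 is mixed.

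As the heatmap of all libraries shows, the list sat lower in every library that had received IACS. The median log2 difference of the 50 genes from the untreated mean was -0.07, -0.10 and -0.08 in the IACS libraries and -0.06, -0.09 and -0.10 in the OHT_IACS libraries. In the OHT libraries it was 0.09, -0.01 and 0.09. OHT replicates 1 and 3, the pair with positive values, had the smallest library totals (10376530 and 10770476), and OHT replicate 2 had 13956222. Reads on the 50 genes made up 0.885 to 0.899% of all gene reads in untreated, 0.870 to 0.909% in OHT, 0.826 to 0.840% in IACS and 0.810 to 0.827% in OHT_IACS libraries. In whole cultures, fewer cells in S phase and less RNA per cell cannot be told apart.

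The first question was what complex I inhibition did to these genes without priming. Against untreated cells, IACS lowered 8 of the 50 genes (16.0%), while 7.74% of all genes tested were called lower. They were Gins2, Chaf1b, Cdc6, Clspn, Gins4, Mcm10, Prim1 and Wdhd1, and their log2 fold changes ran from -0.42 to -0.15. No replication gene was called higher by limma, 1 was above 0 at an unadjusted p under 0.05, and voom on the recovered reads called 0 higher and 11 lower; over all genes 8.15% were called higher. The median log2 fold change of the list was -0.08 against 0.0038 over all genes, and 44 of 50 genes were below 0. In 21 genes every IACS library lay below every untreated library, and in 3 every one lay above (18.7% and 19.9% of all genes). The count of genes called lower was 4 without untreated replicate 1, without untreated replicate 2 or without IACS replicate 3, and 5 without untreated replicate 3. Cdc6, Gins2, Chaf1b and Clspn were called with any of the 12 libraries left out. With RPKM as deposited, 4 of the genes were called lower, and 16 were with quantile normalization or with the library total as a covariate. Over all genes, RPKM as deposited gave another split, in which 867 of 1336 calls were higher against 794 of 1548 here.

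In OHT-primed cells, IACS lowered 23 of the 50 genes (46.0%) relative to OHT alone, against 11.8% of all genes, and raised 1, Timeless (2.0% against 11.9%). The median log2 fold change of the list was -0.16, beside -0.0137 over all genes, and 47 of 50 genes were below 0. Every OHT_IACS library lay below every OHT library in 28 genes and above in 1, against 19.1% and 17.8% of all genes. The changes were small, from -0.35 for Chaf1b to -0.13 for Orc2 among the genes called lower. The count of 23 became 13 without OHT replicate 3, 14 without OHT_IACS replicate 2, 14 without OHT_IACS replicate 3, and 15 when only these 2 groups entered the fit. Cdc6, Mcm10, Gins1, Gins4, Prim1, Rfc3, Rpa2, Chaf1b and Clspn were called with any of the 12 libraries left out. Without OHT replicate 2 the list's median was -0.21.

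The 2 responses to IACS compare different libraries. Both calls of a gene still use 1 spread estimated from all 12 libraries, so the calls are not independent. Called lower in both were Cdc6, Mcm10, Gins2, Gins4, Prim1, Chaf1b and Clspn. These 7 are 87.5% of the genes lower without priming and 30.43% of those lower after priming, and 14.0% of the list, where 4.18% of all genes tested were called lower in both. Cdc6, Chaf1b and Clspn kept both calls with any library left out. Whether the response itself differed with priming was tested as the interaction, in which no replication gene was called by limma or by voom. At an unadjusted p under 0.05 there were 8 in each tool, of which 7 were below 0 and Timeless above in limma, and over all genes 12.7% had such a p. The lowest adjusted p was 0.23, for Orc2. The interaction ran from -0.22 to 0.22 on the log2 scale with a median of -0.06, beside -0.0147 over all genes, and 37 of 50 genes were below 0 and 13 above. The 95% interval of each of the 50 genes ended within 0.5 of 0. That bound is wider than any log2 fold change of the list in either IACS response, so the responses are not shown to be alike. Over all genes 14 were called (0.144%), all above 0, and 30 of 34 were above 0 with quantile normalization. The larger number of calls after priming is thus not shown to be a larger response.

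**Figure D2:**
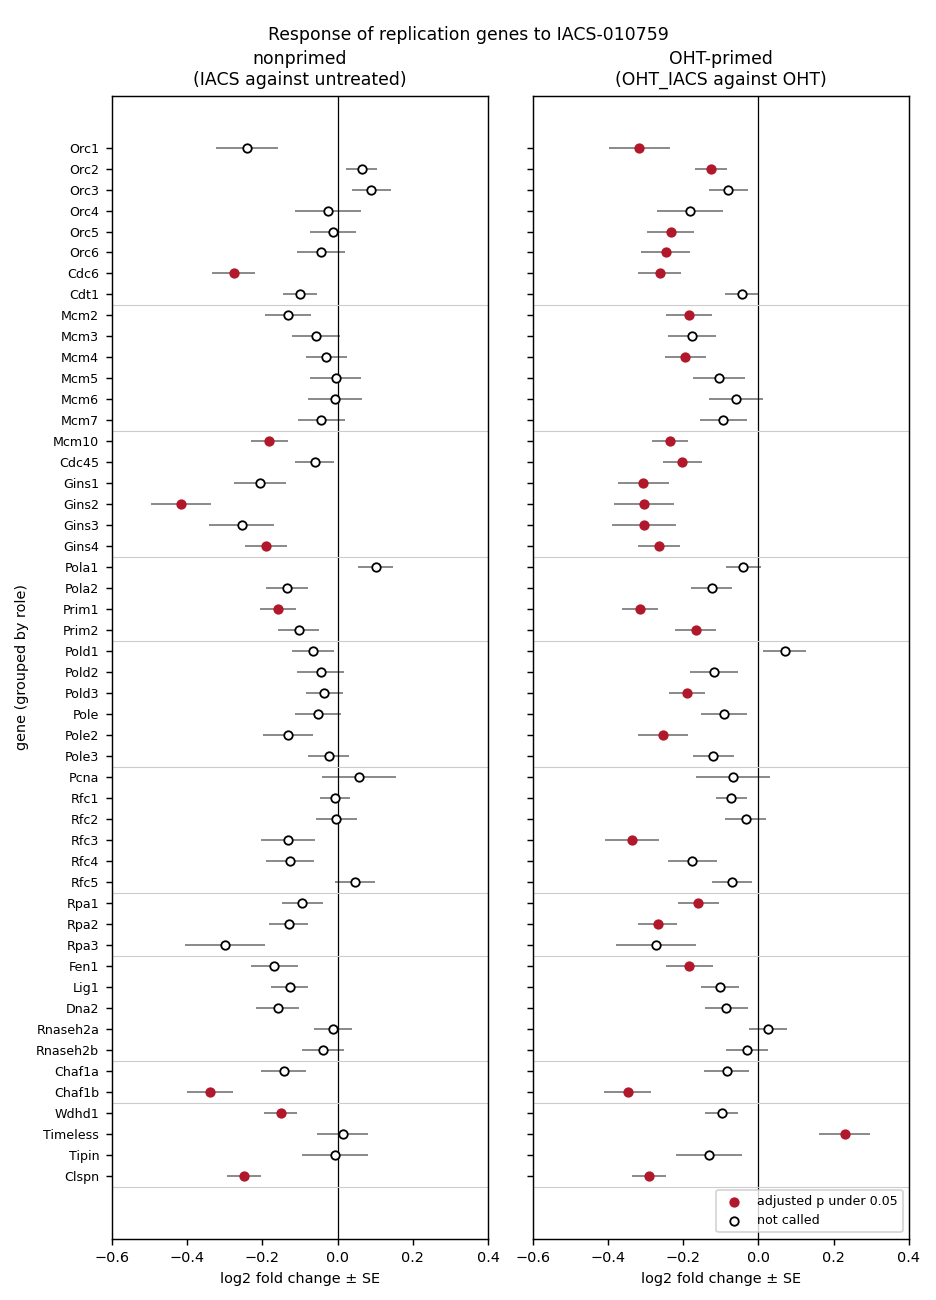
Log2 fold change with its SE for each of the 50 genes in the IACS response without priming (left) and after OHT priming (right), grouped by role; filled points passed the adjusted p threshold of 0.05. Filled points left of 0 number 8 on the left and 23 on the right, and Timeless is the filled point right of 0.

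OHT alone was compared with untreated cells to see how the genes stood after MycER was switched on. All libraries came from cells with MycER, so effects of OHT itself and of MycER activation cannot be told apart. The OHT libraries of this comparison also serve, with opposite sign, in the primed IACS response. A gene's rise here and fall there are therefore not independent. OHT raised 8 genes (16.0%, against 18.2% of all genes): Pold2, Rnaseh2b, Orc6, Orc2, Prim1, Rfc4, Orc3 and Clspn. It lowered 2 (4.0%, against 18.2%), Gins3 and Pola2, which became 8 with quantile normalization and 4 with the library total as a covariate. The list's median log2 fold change was 0.05, beside 0.0127 over all genes, and it was -0.0075 with quantile normalization. Every OHT library lay above every untreated one in 14 genes and below in 7, where all genes gave 22.5% and 23.5%. With the library total as a covariate, 3 genes were called higher and the median was 0.006. The count of 8 became 5 without untreated replicate 2 or OHT replicate 1, and 4 without untreated replicate 3 or OHT replicate 3, and the count of 2 became 1 without untreated replicate 2 or OHT replicate 3. Orc2, Prim1, Pold2, Rnaseh2b and Pola2 were called with any library left out. The summed myeloid markers were lower in the OHT libraries by the ranges given above, with Ctsg at -1.03 and Prtn3 at -1.02 on the log2 scale. Of the 5 myeloid markers tested 4 were called lower, and Cebpe was not (-0.09, adjusted p = 0.37).

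Under IACS, cells with and without OHT were compared last. The OHT_IACS and IACS libraries also serve in the 2 IACS responses, so calls shared with those are not independent. OHT_IACS against IACS called 3 genes higher (6.0%, against 12.3% of all genes), Rnaseh2b, Pold2 and Cdt1, and 4 lower (8.0%, against 14.3%), Gins3, Rfc3, Pola2 and Pole3, while 26.5% of all genes were called in either direction. The median was -0.02, beside -0.0032 over all genes. Every library was higher in 5 genes and lower in 7 (20.1% and 22.2% of all genes). The count of 4 became 2 without IACS replicate 1, IACS replicate 2 or OHT_IACS replicate 3, and 10 with the library total as a covariate. Pold2, Rnaseh2b, Gins3 and Pola2 were called with any library left out.

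**Figure D3:**
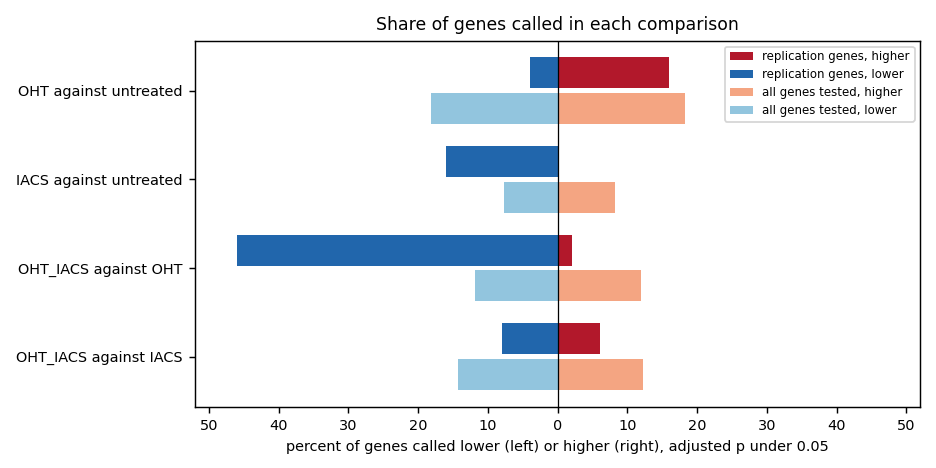
Bars give the percent of genes called lower (left of 0) or higher (right of 0) in 4 comparisons, for the 50 replication genes (dark) and all 9745 genes tested (light). The longest dark bar is the 46.0% of replication genes lower in OHT_IACS than in OHT, beside 11.8% of all genes.

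The origin recognition complex marks the sites where copying can start, and its responses were uneven. Orc1, its largest subunit, measured 6.65, 6.86 and 6.72 RPKM in the untreated libraries, 5.87, 7.07 and 7.31 in OHT, 6.25, 5.33 and 5.52 in IACS and 5.48, 5.46 and 5.20 in OHT_IACS. Orc1 was low in every OHT_IACS library and in IACS replicates 2 and 3, and it fell in the primed response (log2 fold change -0.32 ± 0.08 SE, adjusted p = 0.014), a call lost without OHT replicate 3 or OHT_IACS replicate 3; without priming its log2 fold change was -0.24 with an adjusted p of 0.062. Orc2 measured 25.6, 25.2 and 24.2 RPKM in the untreated libraries, 29.8, 27.97 and 29.1 in OHT, 26.3, 26.4 and 25.7 in IACS and 26.7, 26.6 and 26.2 in OHT_IACS. All OHT libraries of Orc2 stood above all others, so that it rose with OHT (log2 fold change 0.21 ± 0.04 SE, adjusted p = 0.0016) and fell when IACS was added to OHT (log2 fold change -0.13 ± 0.04 SE, adjusted p = 0.045), the latter being lost in 10 of the 12 fits with a library left out. For Orc1 10.8% and for Orc2 29.8% of the exon length is shared with a gene on the opposite strand, and whether reads were counted by strand is not given in the sources used here.

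Orc6, the smallest subunit, measured 27.9, 27.04 and 26.9 RPKM in the untreated libraries, 35.05, 28.1 and 32.6 in OHT, 26.03, 27.1 and 26.3 in IACS and 26.3, 27.02 and 27.01 in OHT_IACS. It rose with OHT (log2 fold change 0.22 ± 0.06 SE, adjusted p = 0.017), where OHT replicates 1 and 3 stood well above replicate 2, and it fell after priming (log2 fold change -0.25 ± 0.06 SE, adjusted p = 0.015). Both calls were lost without OHT replicate 1 or OHT replicate 3, and the former also without untreated replicate 2 or 3. Orc3 measured 10.02, 10.5 and 9.72 RPKM in the untreated libraries, 11.8, 10.8 and 10.9 in OHT, 10.7, 10.5 and 10.9 in IACS and 11.1, 10.4 and 10.1 in OHT_IACS. It rose with OHT (log2 fold change 0.15 ± 0.05 SE, adjusted p = 0.043), and the call was lost in 7 of 12 fits with 1 library left out, among them those without untreated replicate 1 or 3 or OHT replicate 1 or 3. Orc5 fell in the primed response (log2 fold change -0.23 ± 0.06 SE, adjusted p = 0.015), lost without OHT replicate 3, OHT_IACS replicate 1 or OHT_IACS replicate 3, and Orc4 was called in none of the comparisons.

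Cdc6, the ATPase that brings the helicase to the origin, measured 12.7, 11.9 and 12.7 RPKM in the untreated libraries, 11.3, 11.8 and 12.3 in OHT, 10.6, 10.1 and 9.94 in IACS and 10.6, 9.63 and 9.29 in OHT_IACS. All 6 libraries with IACS lay below all 6 without it. It fell by 17.4% without priming (log2 fold change -0.28 ± 0.06 SE, adjusted p = 0.0058) and by 16.6% after priming (log2 fold change -0.26 ± 0.06 SE, adjusted p = 0.0057), and OHT_IACS did not differ from IACS (adjusted p = 0.53). Its partner Cdt1 measured 26.4, 24.5 and 25.8 RPKM in the untreated libraries, 27.3, 27.7 and 26.9 in OHT, 24.1, 23.9 and 23.5 in IACS and 27.3, 26.7 and 25.4 in OHT_IACS. Cdt1 was lowest in the IACS libraries, which did not overlap with those of OHT_IACS, and was called in that comparison only (log2 fold change 0.15 ± 0.04 SE, adjusted p = 0.024), a call lost without any 1 of the 3 IACS libraries or OHT_IACS replicate 1 or 2.

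The MCM subunits form the helicase ring. In the IACS response without priming limma called none of the 6, with 0 at an unadjusted p under 0.05, and voom called 0 with 1 at an unadjusted p under 0.05 and below 0. With OHT alone neither tool called any, nor had any an unadjusted p under 0.05. Mcm2, for example, measured 47.8, 45.8 and 48.1 RPKM in the untreated libraries, 51.9, 46.6 and 51.8 in OHT, 41.99, 41.5 and 45.99 in IACS and 46.1, 43.9 and 42.1 in OHT_IACS. It was lower in all OHT_IACS than in all OHT libraries (log2 fold change -0.18 ± 0.06 SE, adjusted p = 0.044), a call that 9 of the 12 fits with 1 library left out lost, and Mcm4 fell likewise (log2 fold change -0.19 ± 0.05 SE, adjusted p = 0.021), lost without OHT replicate 3, OHT_IACS replicate 2 or OHT_IACS replicate 3. Mcm3, Mcm5, Mcm6 and Mcm7, whose E2F letters are printed above, had log2 fold changes of -0.18, -0.10, -0.06 and -0.09 in the primed response and were called in no comparison. All 6 subunits were below 0 in both IACS responses, and the slope of log2 reads on log2 total ran from 0.51 to 0.869 over them.

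The genes of helicase activation, 1 of 10 roles in the list, encode the proteins that activate the ring. All 6 were called lower in OHT_IACS than in OHT, against 11.8% of all genes tested. Without priming 3 were called lower, against 7.74% of all genes. Whether this role differed from the others was not tested. Gins2 measured 25.7, 24.7 and 27.4 RPKM in the untreated libraries, 24.7, 22.4 and 21.7 in OHT, 20.7, 21.1 and 16.7 in IACS and 18.6, 18.9 and 18.1 in OHT_IACS. Every IACS library lay below every library without IACS, and it fell without priming by 25.1% (log2 fold change -0.42 ± 0.08 SE, adjusted p = 0.0034); after priming it fell by 19.0% (log2 fold change -0.30 ± 0.08 SE, adjusted p = 0.015), a call lost without OHT replicate 1 or OHT_IACS replicate 3. Of the exon length of Gins2, 67.3% is shared with a gene on the opposite strand. Gins4 measured 25.7, 25.7 and 25.8 RPKM in the untreated libraries, 28.1, 26.8 and 28.2 in OHT, 23.3, 23.02 and 21.4 in IACS and 21.1, 23.6 and 24.6 in OHT_IACS. It was nearly constant in untreated cells and lower with IACS (log2 fold change -0.19 ± 0.06 SE, adjusted p = 0.036) and with IACS after priming (log2 fold change -0.26 ± 0.06 SE, adjusted p = 0.0051), the former call being lost without any 1 of the untreated or IACS libraries.

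Mcm10, which binds the ring and polymerase alpha, measured 13.8, 13.7 and 13.5 RPKM in the untreated libraries, 13.4, 13.2 and 12.7 in OHT, 12.6, 11.5 and 12.1 in IACS and 10.98, 10.7 and 11.7 in OHT_IACS. Each IACS group was lower than its control without overlap (log2 fold change -0.18 ± 0.05 SE, adjusted p = 0.021, and after priming log2 fold change -0.23 ± 0.05 SE, adjusted p = 0.0041), the former call being lost without untreated replicate 1 or 2 or IACS replicate 2 or 3. Gins1 measured 14.8, 15.1 and 14.7 RPKM in the untreated libraries, 16.8, 15.9 and 15.7 in OHT, 11.8, 14.3 and 12.8 in IACS and 12.3, 14.3 and 12.6 in OHT_IACS. It fell after priming (log2 fold change -0.31 ± 0.07 SE, adjusted p = 0.0068), while without priming the adjusted p was 0.059 for a log2 fold change of -0.21. Cdc45, the third part of the active helicase, measured 17.1, 16.4 and 17.8 RPKM in the untreated libraries, 18.7, 18.1 and 18.6 in OHT, 17.2, 16.4 and 15.5 in IACS and 16.5, 15.2 and 16.5 in OHT_IACS and fell after priming (log2 fold change -0.20 ± 0.05 SE, adjusted p = 0.014), a call lost without OHT_IACS replicate 2.

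Gins3 was the GINS gene called lower with OHT. It measured 11.99, 13.3 and 12.2 RPKM in the untreated libraries, 9.79, 10.8 and 9.93 in OHT, 11.2, 11.5 and 8.80 in IACS and 8.13, 7.96 and 8.55 in OHT_IACS. All OHT and OHT_IACS libraries lay below all untreated ones, and the OHT_IACS libraries were the lowest of all. It fell with OHT (log2 fold change -0.29 ± 0.09 SE, adjusted p = 0.017), with IACS after priming (log2 fold change -0.30 ± 0.09 SE, adjusted p = 0.021), and in OHT_IACS against IACS (log2 fold change -0.34 ± 0.09 SE, adjusted p = 0.01). The first call was lost without untreated replicate 2, OHT replicate 1 or OHT replicate 3, and the call after priming without OHT replicate 2, OHT_IACS replicate 1 or OHT_IACS replicate 2.

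**Figure D4:**
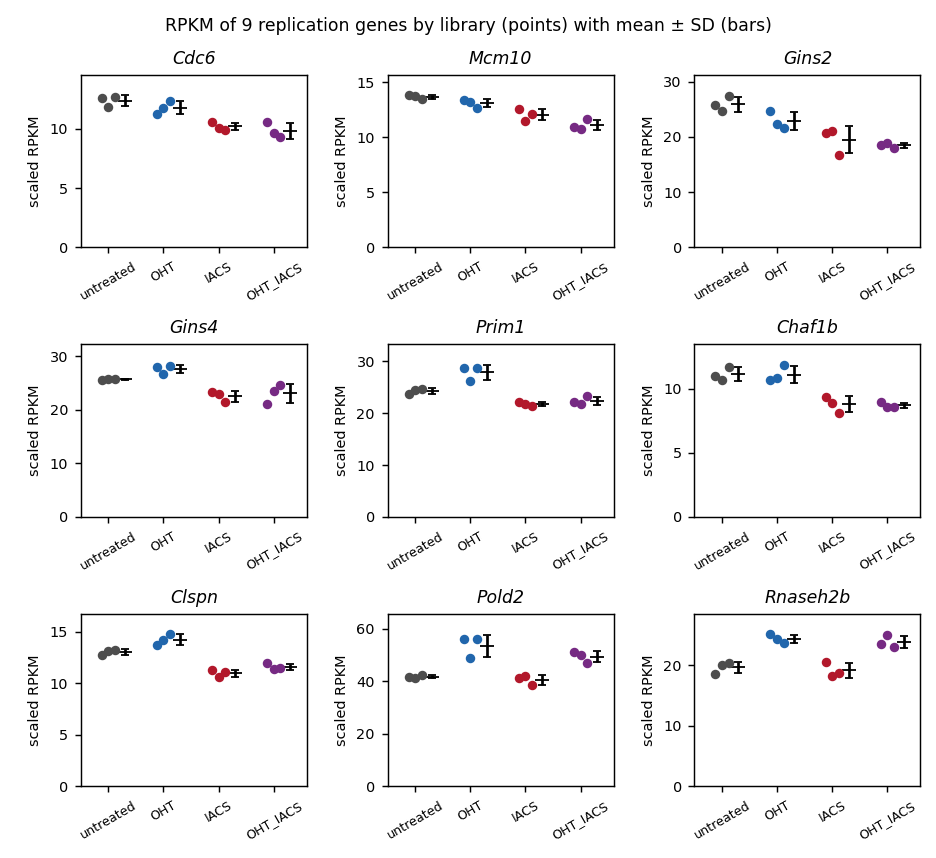
Scaled RPKM of 9 replication genes in each of the 12 libraries (points) with the mean and SD of each group of 3 (bars); axes start at 0. Cdc6, Mcm10, Gins2, Gins4, Prim1, Chaf1b and Clspn are lower in both groups with IACS than in their controls, while Pold2 and Rnaseh2b are higher in both groups with OHT.

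Polymerase alpha and its primase lay the primers. Prim1, the catalytic primase subunit, measured 23.6, 24.5 and 24.7 RPKM in the untreated libraries, 28.8, 26.2 and 28.8 in OHT, 22.1, 21.8 and 21.4 in IACS and 22.1, 21.8 and 23.3 in OHT_IACS. The OHT libraries were the highest, and Prim1 rose with OHT (log2 fold change 0.20 ± 0.05 SE, adjusted p = 0.0055) and had the smallest adjusted p of the list in the primed response, a fall of 19.7% (log2 fold change -0.32 ± 0.05 SE, adjusted p = 5.5e-04). Without priming its fall was 10.4% (log2 fold change -0.16 ± 0.05 SE, adjusted p = 0.038), a call lost without any 1 of the untreated or IACS libraries or OHT_IACS replicate 1. Prim2, the regulatory subunit, fell after priming (log2 fold change -0.17 ± 0.05 SE, adjusted p = 0.039), which was lost in 10 of the 12 fits with a library left out.

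Pola2, the accessory subunit of polymerase alpha, measured 13.7, 12.99 and 13.7 RPKM in the untreated libraries, 11.8, 10.8 and 11.8 in OHT, 12.7, 11.4 and 12.7 in IACS and 10.3, 10.9 and 10.3 in OHT_IACS. Each group with OHT was lower than the matching group without it (log2 fold change -0.23 ± 0.06 SE, adjusted p = 0.0054, and under IACS log2 fold change -0.22 ± 0.06 SE, adjusted p = 0.0097), and neither IACS response was called (adjusted p = 0.12 and 0.12). The catalytic subunit Pola1 measured 11.7, 12.04 and 11.2 RPKM in the untreated libraries, 12.8, 12.2 and 12.4 in OHT, 12.5, 12.4 and 12.6 in IACS and 12.7, 11.7 and 11.99 in OHT_IACS. Its mean was lowest in untreated cells, but no comparison called it, with adjusted p from 0.12 to 0.56 over the 4 comparisons of groups.

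Among the subunits of polymerases delta and epsilon, which extend the strands, Pold2 was called higher with OHT. It measured 41.6, 41.4 and 42.5 RPKM in the untreated libraries, 55.98, 48.8 and 56.03 in OHT, 41.1, 42.2 and 38.4 in IACS and 50.97, 50 and 46.99 in OHT_IACS. All 6 libraries with OHT lay above all 6 without it, and Pold2 rose by 27.8% with OHT (log2 fold change 0.35 ± 0.06 SE, adjusted p = 7.5e-04) and by 21.5% under IACS (log2 fold change 0.28 ± 0.06 SE, adjusted p = 0.005). The catalytic subunits were not called: Pold1 measured 32.7, 31.6 and 34.5 RPKM in the untreated libraries, 29.8, 29.2 and 29.8 in OHT, 31.6, 30.6 and 32.1 in IACS and 32.3, 32.6 and 28.4 in OHT_IACS, with its smallest adjusted p of 0.051 in OHT against untreated (log2 fold change -0.15). Pole measured 9.54, 9.93 and 9.88 RPKM in the untreated libraries, 8.87, 10.3 and 10.3 in OHT, 9.59, 8.88 and 9.83 in IACS and 9.20, 9.21 and 9.13 in OHT_IACS, and its groups overlapped in each of the 4 comparisons. Pold3 and Pole2 fell after priming (log2 fold change -0.19 ± 0.05 SE, adjusted p = 0.012 and log2 fold change -0.25 ± 0.07 SE, adjusted p = 0.016), lost without OHT replicate 3 and without OHT_IACS replicate 2 respectively. Pole3, a small histone-fold subunit, measured 35.5, 34.4 and 32.7 RPKM in the untreated libraries, 32.8, 31.5 and 32.9 in OHT, 33.6, 34.95 and 32.5 in IACS and 28.02, 31.8 and 29.6 in OHT_IACS and was called lower in OHT_IACS than in IACS (log2 fold change -0.18 ± 0.05 SE, adjusted p = 0.031), which was lost without IACS replicate 1 or 2 or OHT_IACS replicate 1 or 3.

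Pcna, the sliding clamp and the most abundant gene of the list, measured 86.6, 78.4 and 81.2 RPKM in the untreated libraries, 103, 79.6 and 94.7 in OHT, 82.3, 78.04 and 96.8 in IACS and 88.4, 85.98 and 88.4 in OHT_IACS. Its groups overlapped in each of the 4 comparisons, and none called it; the reads of Pcna hardly grew with the library total, as given above. Of the clamp loader, Rfc3 measured 12.2, 12.4 and 12.3 RPKM in the untreated libraries, 13.1, 11.2 and 11.4 in OHT, 11.8, 11.4 and 10.6 in IACS and 10.2, 9.58 and 8.55 in OHT_IACS. The OHT_IACS libraries were the lowest, and Rfc3 fell against OHT (log2 fold change -0.34 ± 0.07 SE, adjusted p = 0.0051) and against IACS (log2 fold change -0.25 ± 0.07 SE, adjusted p = 0.019), the latter lost without IACS replicate 1 or 2 or OHT_IACS replicate 3. Rfc1, the large subunit, measured 19.5, 19.2 and 20.1 RPKM in the untreated libraries, 19.8, 20.4 and 19.9 in OHT, 19.6, 19.3 and 19.8 in IACS and 19.8, 18.6 and 18.9 in OHT_IACS and was called nowhere, as were Rfc2 and Rfc5. Rfc4 was called higher with OHT (log2 fold change 0.20 ± 0.06 SE, adjusted p = 0.027), although OHT replicate 2 overlapped with the untreated libraries, and the call was lost without untreated replicate 2 or 3 or OHT replicate 1 or 3. The exons of Rfc2 (15.1%), Rfc4 (12.7%) and Rfc5 (10.7%) overlap with opposite-strand genes.

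Of the 3 RPA subunits, Rpa2 fell after priming (log2 fold change -0.27 ± 0.05 SE, adjusted p = 0.0028). Rpa1, the large DNA-binding subunit, measured 40.3, 39.8 and 39.8 RPKM in the untreated libraries, 44.4, 38.5 and 41.9 in OHT, 37.3, 36.3 and 38.8 in IACS and 36.9, 37.98 and 36.7 in OHT_IACS, and its fall (log2 fold change -0.16 ± 0.05 SE, adjusted p = 0.048) was lost in 10 of the 12 fits with a library left out. Rpa3 had log2 fold changes of -0.30 and -0.27 in the 2 IACS responses, but the spread of its libraries was wide and the adjusted p values were 0.074 and 0.079.

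The lagging-strand genes gave fewer calls. Fen1, the flap endonuclease, measured 61.1, 60.7 and 59.9 RPKM in the untreated libraries, 65.5, 55.6 and 62.9 in OHT, 54.1, 52.7 and 54.8 in IACS and 55.4, 53.5 and 52.7 in OHT_IACS. All IACS and OHT_IACS libraries lay below all libraries without IACS, and it was called after priming (log2 fold change -0.18 ± 0.06 SE, adjusted p = 0.046) but not without (adjusted p = 0.082); the call was lost in 10 of the 12 fits with a library left out, and 84.2% of the exon length of Fen1 is shared with an opposite-strand gene. DNA ligase Lig1 measured 17.1, 16.5 and 18.1 RPKM in the untreated libraries, 17.4, 17.7 and 18.2 in OHT, 16.8, 15.5 and 15.02 in IACS and 16.6, 16.4 and 16.7 in OHT_IACS, with adjusted p of 0.1 and 0.15 in the IACS responses. Rnaseh2b, a subunit of the enzyme that removes ribonucleotides from DNA, measured 18.6, 20.02 and 20.3 RPKM in the untreated libraries, 25.1, 24.2 and 23.7 in OHT, 20.5, 18.2 and 18.7 in IACS and 23.5, 24.98 and 23.02 in OHT_IACS. Like Pold2 it was higher in all 6 libraries with OHT than in all 6 without, by 23.9% (log2 fold change 0.31 ± 0.06 SE, adjusted p = 8.4e-04) and under IACS by 24.7% (log2 fold change 0.32 ± 0.06 SE, adjusted p = 9.6e-04). Rnaseh2a and Dna2 were called nowhere.

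Chaf1b, the middle subunit of the histone chaperone CAF-1, measured 11.02, 10.7 and 11.7 RPKM in the untreated libraries, 10.7, 10.8 and 11.9 in OHT, 9.39, 8.89 and 8.16 in IACS and 8.96, 8.63 and 8.56 in OHT_IACS. All 6 libraries with IACS lay below all 6 without it, and it fell by 20.9% (log2 fold change -0.34 ± 0.06 SE, adjusted p = 0.0026) and after priming by 21.4% (log2 fold change -0.35 ± 0.06 SE, adjusted p = 0.0016). Chaf1a, the large subunit, measured 14.6, 14.9 and 15.8 RPKM in the untreated libraries, 13.3, 14.5 and 14.4 in OHT, 13.5, 13.2 and 14.3 in IACS and 14.2, 12.2 and 13.5 in OHT_IACS and was called in no comparison; 52.5% of its exon length is shared with an opposite-strand gene. Whether the 2 genes differ from each other was not tested.

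At the fork itself, Claspin carries the checkpoint signal to the kinase Chk1. Clspn measured 12.8, 13.1 and 13.2 RPKM in the untreated libraries, 13.7, 14.2 and 14.8 in OHT, 11.2, 10.6 and 11.1 in IACS and 11.96, 11.4 and 11.4 in OHT_IACS. All 6 libraries with IACS lay below all 6 without, and it fell by 15.8% (log2 fold change -0.25 ± 0.05 SE, adjusted p = 0.0028) and after priming by 18.3% (log2 fold change -0.29 ± 0.05 SE, adjusted p = 6.9e-04); its rise with OHT was small (log2 fold change 0.13 ± 0.05 SE, adjusted p = 0.045) and was lost in 8 of the 12 fits with a library left out. Wdhd1, which tethers polymerase alpha to the helicase, fell without priming (log2 fold change -0.15 ± 0.04 SE, adjusted p = 0.033), lost without any 1 of the untreated or IACS libraries, and had an adjusted p of 0.12 after priming. Timeless measured 11.9, 12.8 and 12.8 RPKM in the untreated libraries, 10.2, 12.4 and 11.8 in OHT, 12.7, 11.8 and 13.4 in IACS and 13.5, 13.2 and 13.6 in OHT_IACS. It was the only replication gene called higher in OHT_IACS than in OHT (log2 fold change 0.23 ± 0.07 SE, adjusted p = 0.026), with OHT replicate 1 the lowest library, and the call was lost without OHT replicate 1, OHT_IACS replicate 1 or OHT_IACS replicate 3. Its partner Tipin was called nowhere.

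Genes that work with the replication machinery were taken from further lists. Over all genes tested 8.15% rose and 7.74% fell with IACS, 11.9% and 11.8% after priming, and 18.2% in each direction with OHT, and the counts of these lists stand beside those shares. Of 36 other replication factors tested, 2 rose and 4 fell with IACS, among the latter the clamp-loader gene Chtf18 (-0.44 on the log2 scale) and Dscc1 (-0.39), and the kinase gene Atr and the origin-firing gene Mtbp rose (0.24 and 0.34). After priming 1 rose, Cdc7 (0.20), and 4 fell, Donson (-0.32), the histone chaperone gene Asf1b (-0.23) and the licensing inhibitor gene Gmnn (-0.23) among them. Their median log2 fold changes were -0.02 and -0.07 in the 2 IACS responses. With OHT 9 rose and 4 fell: Pold4 (-0.49), Tonsl (-0.38) and Recql4 (-0.35) were among the falls, with the kinase gene Cdc7 at -0.34 and its activator Dbf4 at 0.29.

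Of 11 genes of S-phase kinases and their control, Skp2, Ccne2 and Ccne1 fell with IACS both without priming (-0.42, -0.42 and -0.28 on the log2 scale) and after it (-0.53, -0.51 and -0.36). Ccne1 and Ccne2 encode cyclin E, which starts S phase with Cdk2, and Skp2 a ubiquitin ligase subunit that removes cell cycle inhibitors. Cul4a, part of the ligase that degrades Cdt1, rose in both (0.12 and 0.18). Among genes of deoxynucleotide supply, the ribonucleotide reductase gene Rrm2 (-0.18 and -0.38) and the kinase gene Dck (-0.28 and -0.38) fell in both, and Tk1 (-0.28) and Tyms (-0.19) after priming. With OHT, Rrm2b rose (0.42) and Tk1 fell (-0.32).

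Of 17 E2F and pocket protein genes, E2f2 fell with IACS (-0.47) and E2f5 and Lin9 fell after priming (-0.32 and -0.20), with medians of the list of -0.04 and -0.03. E2f5 averaged 5.03 RPKM in untreated, 7.12 in OHT, 5.05 in IACS and 5.64 in OHT_IACS libraries. Its fall after priming thus started from a higher level with OHT and did not end below untreated cells. With OHT alone 3 genes of this list rose and 2 fell. A list of 20 mitosis genes was set beside these as a measure of dividing cells. In the IACS response without priming limma called none of them, with 3 below 0 at an unadjusted p under 0.05, and voom called 0, with 3 below and 1 above 0 at an unadjusted p under 0.05. After priming 4 fell, among them Aurka (-0.24), Kif20a (-0.24) and Kif23 (-0.21). The list's medians were -0.03 and -0.10, beside -0.08 and -0.16 for the replication genes, and the difference between the lists was not tested.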

How the data were processed

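RNA-seq libraries of FL MycER cells in 4 groups of 3, grouped by their labels, were made from total RNA after ribosomal depletion with a stranded kit. The authors deposited one table of RPKM values per gene and library, beside results of their own DESeq2 test in 3 comparisons (a log2 fold change and an adjusted p-value in each), which were not used. The submitters' processing notes name TopHat2 2.0.8, TopHat, SAMtools, featureCounts 1.4.5-p1, DESeq2 and mm9, with no roles or order. The annotation and the strand setting of counting are not given in the sources used here.

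RPKM is no count, so limma 3.58.1 (R 4.3.3) was run on log2(RPKM + 0.1) after median-ratio scaling, and a fold change is on that scale. Genes with at least 1 RPKM in at least 3 libraries were tested (9745) in 1 fit of 12 libraries with a mean-variance trend. In each of 5 comparisons the two-sided p-values were adjusted over all genes by Benjamini-Hochberg, with a threshold of 0.05. Reads and library totals were recovered from the RPKM steps. They were whole for 15451 of 15451 genes above 0 within a tolerance of 0.001, and 6220 genes were at 0 throughout. Reads on genes ran from 4199265 to 5762338 per library. Over 12 pairs of replicates the chi-square per gene of scarce genes ran from 1.08 to 1.79, where sampling noise gives about 1. In scarce genes sampling noise is large, so this value cannot tell biological from technical replicates. All were kept as the biological replicates that the study describes. Every column with values of a library was used.

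The members and lists were chosen with earlier results of these data known. Values in every library are given for up to 6 called genes a direction and comparison with the largest changes and no overlap, and for 17 genes that represent the roles; of other lists, up to 3 called genes a comparison with the largest changes are named, and Atr, Cdc7, Cul4a, Dbf4 and Tyms were in part named after their values were seen. Some genes of these lists are not reported here. Promoters were RefSeq sequences on GRCm38.p6, and exon overlaps come from GENCODE vM21 (GRCm38), not the mm9 build of the reads. Alternatives were 2 pseudocounts, 2 filters, 2 scalings, no trend, voom on the recovered reads, the compared groups alone, the library total as a covariate, a replicate block, and each library left out. The scripts were tested on simulated data. Tables were handled with pandas 2.3.3 and numpy 2.4.6 in python 3.11.15, and plots drawn with matplotlib 3.10.9.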

Additional observations from a re-analysis of the deposited data

How the results depend on the processing

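Of the 49 calls of single genes in the 4 comparisons of groups, retested in 1127 combinations of call and alternative, 944 kept direction and threshold, 183 kept direction only, and 0 reversed. Counts of genes called that moved by over 1.5 times were as follows. With OHT, 8 genes higher became 5 with only the compared groups and 3 with the library total as a covariate, and 2 lower became 8 with quantile normalization and 4 with the covariate. With IACS, 8 lower became 4 with RPKM as deposited, 16 with quantile normalization and 16 with the covariate. After priming, 23 lower became 15 with only the compared groups, and in OHT_IACS against IACS 4 lower became 10 with the covariate. The cause of these shifts was not tested. Leaving out each library gave 4 to 12 higher and 1 to 3 lower with OHT, 0 higher and 4 to 12 lower with IACS, 0 to 1 higher and 13 to 28 lower after priming, 2 to 4 higher and 2 to 5 lower in OHT_IACS against IACS, and 0 higher and 0 to 1 lower in the interaction, the 1 being without OHT replicate 2. Over all alternatives the list's median ran from -0.0075 to 0.0906 with OHT, from -0.1096 to -0.0514 with IACS, from -0.2118 to -0.1131 after priming, from -0.037 to -0.0076 in OHT_IACS against IACS and from -0.1045 to -0.0255 in the interaction. Replicate numbers did not pair the libraries throughout: over 18 pairs the correlation of deviations ran from -0.172 to 0.104, with 1 over 0.1. Each untreated library did correlate most with the OHT library of the same number (0.083, 0.104 and 0.0879). With the replicate block the counts were 7 higher and 2 lower with OHT, 8 lower with IACS, 1 higher and 21 lower after priming, and 3 higher and 4 lower in OHT_IACS against IACS. Depth left 161 to 2350 reads per gene and library, and 3 libraries per group limit the calls to changes beyond their spread.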
